A study of Mus musculus with 6 samples.

Results

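Transcripts of 8 small RNA and piRNA pathway genes were followed from the mouse oocyte to the cleaving embryo, with and without maternal Yap1. The genes were Piwil2, Gtsf1, Ddx4, Mael, Mov10l1, Pld6, Tdrkh and Dicer1, chosen by name from the 23308 gene symbols in the tables. All 8 were listed once and overlapped no other listed gene. Levels are given in FPKM, the number of sequenced fragments scaled to transcript length and to the mapped fragments of the library, so levels of different genes can be set side by side.

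Polyadenylated RNA was sequenced from 6 libraries of 60 pooled oocytes or embryos each, from ICR-background females of 21 to 23 days injected with PMSG and hCG. Germinal vesicle (GV) oocytes, still arrested in the first meiotic prophase, gave 2 wild-type libraries and 2 libraries from YAP-/- females, called YAP-null here. Embryos at the 4-cell stage, from hormone-injected and mated females, gave 1 wild-type and 1 YAP-null library. The labels describe YAP-null oocytes and embryos as Yap1-deleted and their mothers as YAP-/-. The sources used here do not give how the deletion was made, which cells of the females carried it, or the genotype of the fathers. The source field of both 4-cell samples names GV oocytes, against their titles and stage fields. The titles were followed. YAP, encoded by Yap1, is a transcriptional coactivator that Hippo signalling restrains, and the title of the series asks whether YAP of the oocyte activates the first genes of the embryo.

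piRNAs are small RNAs of germ cells that guide PIWI proteins to transposon transcripts. Their long precursors are brought to the outer membrane of mitochondria, cut by an endonuclease, loaded into a PIWI protein, trimmed at the 3' end and methylated, while RNA helicases and Tudor domain proteins hold the machinery together in perinuclear granules called nuage. In male mice, loss of most of these factors stops sperm production. Mouse oocytes express many of the same genes but are fertile without several of them, and depend instead on Dicer, which cuts double-stranded RNA into siRNAs and miRNA precursors into miRNAs.

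The libraries were first checked against their labels. Yap1 was at 248 and 154 FPKM in wild-type GV libraries 1 and 2, at 10.8 and 10.04 FPKM in YAP-null GV libraries 1 and 2, at 89.7 FPKM in the wild-type 4-cell library and at 33.3 FPKM in the YAP-null 4-cell library. The YAP-null level was thus 5.19% of wild type in GV oocytes and 37.2% at the 4-cell stage. The 10 oocyte markers (Gdf9, Bmp15, Zp1, Zp2, Zp3, Ooep, Nlrp5, Figla, Nobox and H1foo) summed to 6313 to 11525 FPKM in GV libraries. They summed to 118.8 FPKM in the wild-type and 943 FPKM in the YAP-null 4-cell library. Of 7 embryo markers, Klf5 and Tead4 were at 0.197 FPKM or less in every GV library and at 40.4 to 106 FPKM at the 4-cell stage. Pou5f1 was already at 161 to 298 FPKM in GV libraries, and Sox2 was at 1.68 FPKM or less in all 6 libraries. Of the male germ cell markers, Prm1, Tnp1 and Tnp2 were listed at 0 in all 6 libraries and Prm2 reached 10.2 FPKM. The 12 granulosa and cumulus markers summed to 31.0 to 40.3 FPKM in GV libraries, led by Inha (6.12 to 15.6 FPKM) and Cyp19a1 (9.51 to 13.6 FPKM), with Fshr and Foxl2 at 1.34 FPKM or less. They summed to 209 and 96.7 FPKM in the 4-cell libraries (wild type first), mostly Gja1 and Amhr2, while Inha and Cyp19a1 were at 0.938 FPKM or less there. The 8 blood markers summed to 4.92 FPKM or less in GV libraries and to 96.0 and 25.9 FPKM in the 4-cell libraries. Fragment totals are unknown. From the widths of the deposited bounds, the depth relative to wild-type GV library 1 was about 0.420 in wild-type GV library 2, 0.368 in YAP-null GV library 1, 0.447 in YAP-null GV library 2, and 0.975 and 0.808 in the wild-type and YAP-null 4-cell libraries. The GV libraries with the same number resembled each other: deviations from the genotype mean correlated at r = 0.85 across 10462 genes, which are not independent replicates. Differences are therefore also given within the libraries numbered 1 and 2. No label states that libraries came from separate animals or collections, so p-values measure the spread between these libraries only.

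In the oocyte the 8 genes spanned more than 2 orders of magnitude. Gtsf1 was the most abundant in every GV library and made up 58.9% to 81.8% of the summed level of the 8 genes, which was 393 to 616 FPKM. It lay above 98.1% to 99.3% of all genes with at least 1 FPKM in the same library. Dicer1 and Mael followed at means of 57.7 ± 25.4 and 33.2 ± 8.15 FPKM, then Tdrkh at 19.13 ± 4.85 and Ddx4 at 14.9 ± 8.14 FPKM, and last Pld6 at 4.91 ± 2.90, Piwil2 at 2.05 ± 1.32 and Mov10l1 at 1.81 ± 0.511 FPKM (SD, n = 4 GV libraries of both genotypes). The intervals of mean ± SD of Dicer1 and Mael overlapped, as did those of Tdrkh and Ddx4, of Ddx4 and Pld6, and of Pld6, Piwil2 and Mov10l1, while those of Mael and Tdrkh did not. Even so, Mael (22.1 FPKM) lay below Tdrkh (22.6 FPKM) and Ddx4 (23.4 FPKM) in YAP-null GV library 2. It lay above both in YAP-null GV library 1 and in wild-type GV libraries 1 and 2. At the 4-cell stage the order was different. Mael and Dicer1 led in both libraries, and Gtsf1 fell from the first place to the sixth place in the wild-type and to the last place in the YAP-null library, where it made up 5.50% and 2.47% of a sum of 106 and 145 FPKM. Without Gtsf1 the sum of the other genes was 104 to 161 FPKM in GV libraries and 100.2 and 141 FPKM in the wild-type and YAP-null 4-cell libraries. The plot of FPKM by library shows each value.

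**Figure D1:**
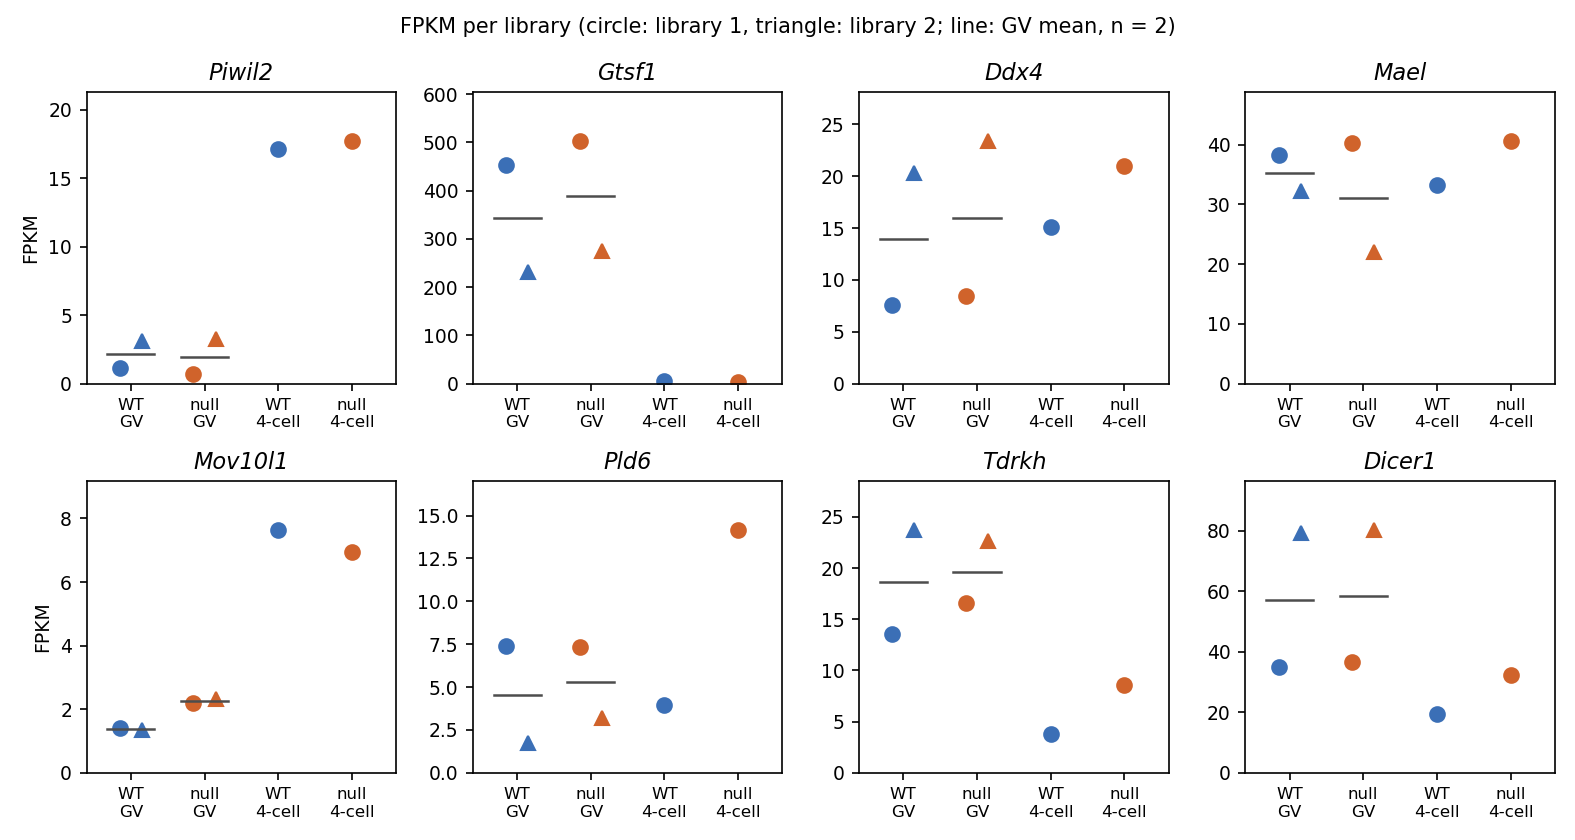
FPKM of each gene (vertical axis, starting at 0, a scale of its own per gene) in the wild-type (blue) and YAP-null (orange) GV and 4-cell libraries. Circles are libraries numbered 1, triangles libraries numbered 2, and lines the mean of 2 GV libraries. Gtsf1 sits between 232 and 504 FPKM in GV libraries and at 5.83 and 3.57 FPKM at the 4-cell stage, while Piwil2 and Mov10l1 are higher in both 4-cell libraries than in any GV library.

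The first comparison was between stages, fitted over all 6 libraries with genotype as a term. The fit has no term for the library number and counts the 4 GV libraries as independent, although same-numbered ones resembled each other (r = 0.85). The SEs and adjusted p-values between stages, here and below, do not allow for this likeness. Between the GV oocyte and the 4-cell embryo, 4 of the 8 genes changed: Gtsf1 and Tdrkh fell, and Piwil2 and Mov10l1 rose. Dicer1, Ddx4, Mael and Pld6 did not pass the test. Of 11451 genes tested with limma, 28.2% passed at an adjusted p of 0.05 as higher and 27.8% as lower at the 4-cell stage, and 56% in either, so 2 of 8 in each direction is close to the share among all genes. RNA content per oocyte or embryo was not measured, so FPKM differences are relative to the other transcripts of a library. Fewer cells carrying a transcript and less transcript per cell cannot be told apart.

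Gtsf1 (chromosome 15, 103232890 to 103260858, mm9) encodes a small zinc finger protein that binds PIWI proteins and speeds their cleavage of targets. It was at 453 and 232 FPKM in wild-type GV libraries 1 and 2, at 504 and 274 FPKM in YAP-null GV libraries 1 and 2, and at 5.83 and 3.57 FPKM in the 4-cell libraries (wild type first). Every GV library was far above both 4-cell libraries. The 4-cell level was 1.70% of the GV mean in wild type and 0.919% in YAP-null. The stage difference was -5.96 ± 0.467 (SE) on the log2(FPKM + 1) scale (limma, Benjamini-Hochberg adjusted p = 0.000276), and it passed whichever of the 6 libraries was left out (highest adjusted p 0.0159). In the 4 GV libraries the deposited Gtsf1 value lies outside its own deposited bounds, for example 453 FPKM with bounds of 337.5 and 375 FPKM, so bounds are not used for its oocyte level.

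Tdrkh (chromosome 3, 94217240 to 94235421, mm9) encodes a Tudor domain protein of the mitochondrial surface that holds PIWI proteins while piRNA ends are trimmed. It was at 13.6 and 23.7 FPKM in wild-type GV libraries 1 and 2, at 16.6 and 22.6 FPKM in YAP-null GV libraries 1 and 2, and at 3.82 and 8.54 FPKM in the 4-cell libraries (wild type first). Both 4-cell values were below all 4 GV values. The stage difference was -1.54 ± 0.401 (SE, limma adjusted p = 0.0180). The call rested on both 4-cell libraries: the adjusted p was 0.195 without the wild-type and 0.0561 without the YAP-null 4-cell library.

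Piwil2 (chromosome 14, 70772287 to 70828901, mm9) encodes MILI, a cytoplasmic PIWI protein that cuts transposon transcripts and feeds the amplification of piRNAs. It was at 1.15 and 3.12 FPKM in wild-type GV libraries 1 and 2, at 0.690 and 3.25 FPKM in YAP-null GV libraries 1 and 2, and at 17.2 and 17.8 FPKM in the 4-cell libraries (wild type first). The 4-cell level was 8.04 times the GV mean in wild type and 9.02 times in YAP-null. The stage difference was 2.71 ± 0.491 (SE, limma adjusted p = 0.00443). Without the wild-type or the YAP-null 4-cell library the adjusted p was 0.0819 and 0.0801, so this call also rested on both.

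Mov10l1 (chromosome 15, 88813424 to 88885582, mm9) encodes the RNA helicase that brings piRNA precursors into processing. It was at 1.40 and 1.34 FPKM in wild-type GV libraries 1 and 2, at 2.19 and 2.31 FPKM in YAP-null GV libraries 1 and 2, and at 7.64 and 6.94 FPKM in the 4-cell libraries (wild type first). All GV values were below both 4-cell values. The 4-cell level was 5.57 times the GV mean in wild type and 3.08 times in YAP-null, and the stage difference was 1.58 ± 0.295 (SE, limma adjusted p = 0.00499). It passed without any 1 of the 6 libraries (highest adjusted p 0.0372). Since Piwil2 and Mov10l1 were low in oocytes, folds of FPKM are larger than the differences on the log2(FPKM + 1) scale.

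The other 4 genes did not pass the test between stages. Dicer1 (chromosome 12, 105925952 to 105990162, mm9), the nuclease of the siRNA and miRNA pathways, was at 35.0 and 79.0 FPKM in wild-type GV libraries 1 and 2, at 36.4 and 80.2 FPKM in YAP-null GV libraries 1 and 2, and at 19.3 and 32.2 FPKM in the 4-cell libraries (wild type first). Both 4-cell values were below all GV values, but the YAP-null one came close to the GV libraries numbered 1, and the stage difference of -1.07 ± 0.505 did not pass (limma adjusted p = 0.114). Mouse oocytes make a shortened Dicer from a retrotransposon promoter inside the gene. The tables give 1 value per gene and do not separate it from the full-length transcript.

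Mael (chromosome 1, 168131516 to 168168875, mm9), a nuage protein of the piRNA pathway, was at 38.2 and 32.2 FPKM in wild-type GV libraries 1 and 2, at 40.2 and 22.1 FPKM in YAP-null GV libraries 1 and 2, and at 33.2 and 40.7 FPKM in the 4-cell libraries (wild type first). The stages overlapped, with a difference of 0.18 ± 0.372 (limma adjusted p = 0.703). Ddx4 (chromosome 13, 113388541 to 113442518, mm9) encodes the germ cell helicase VASA of the nuage. It was at 7.55 and 20.3 FPKM in wild-type GV libraries 1 and 2, at 8.41 and 23.4 FPKM in YAP-null GV libraries 1 and 2, and at 15.1 and 21.0 FPKM in the 4-cell libraries (wild type first). Both 4-cell values fell between the lower pair and the highest GV value, and the difference was 0.40 ± 0.550 (adjusted p = 0.565).

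Pld6 (chromosome 11, 59597395 to 59601159, mm9), the mitochondrial endonuclease also called Zucchini that cuts piRNA precursors, was at 7.38 and 1.71 FPKM in wild-type GV libraries 1 and 2, at 7.34 and 3.20 FPKM in YAP-null GV libraries 1 and 2, and at 3.96 and 14.2 FPKM in the 4-cell libraries (wild type first). The wild-type 4-cell value lay inside the range of the GV libraries and the YAP-null value above it. The stage difference was 0.71 ± 0.606 (limma adjusted p = 0.351), with 0.06 within wild type and 1.36 within YAP-null.

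**Figure D2:**
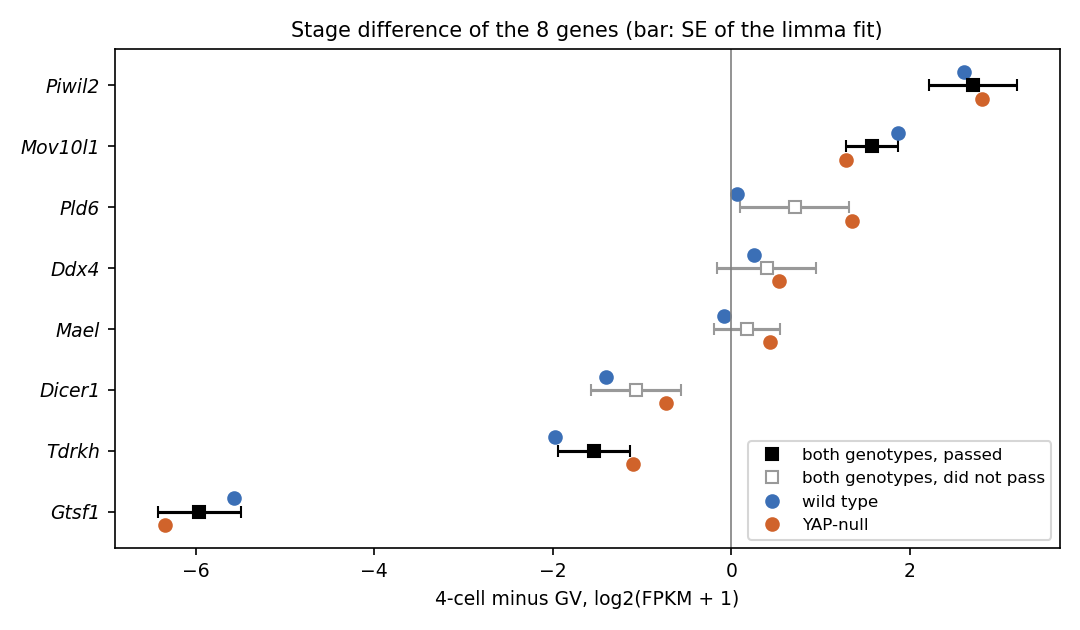
Stage difference of each gene, 4-cell minus GV in log2(FPKM + 1) on the horizontal axis. Squares are the limma estimate over 6 libraries with its SE, filled where the adjusted p is under 0.05, and circles are the difference within wild type (blue) and within YAP-null (orange). Gtsf1 stands at -5.96, Tdrkh at -1.54, Mov10l1 at 1.58 and Piwil2 at 2.71, and the other 4 squares are open.

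The genes that rose were a PIWI protein and a precursor helicase, and those that fell were a PIWI cofactor and a mitochondrial Tudor protein. The median stage difference of the 8 genes was 0.29, against -0.10 over all genes tested. Where groups are compared by overlap alone, 2 of the 8 genes were higher in both 4-cell libraries than in all 4 GV libraries (35.1% of all genes tested) and 3 were lower (35.2%).

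Start regions are shown for Gtsf1 and Tdrkh, which fell, and Mov10l1, which rose. RefSeq sequence (GRCm38.p6) from 250 bases before to 50 bases after the start was matched for 7 of the 8 genes, and Piwil2 was not matched. Capitals mark matches, on either strand, to CCAAT, to the GC box GGGCGG and to the E-box CACGTG. The MYB core CAACNG and TATAAA were searched in the same way and have no match in these 3 sequences. The Gtsf1 sequence lies at chr15:103430378-103430677 on the minus strand, that of Tdrkh at chr3:94412994-94413293 on the plus strand and that of Mov10l1 at chr15:88982744-88983043 on the plus strand.
Gtsf1: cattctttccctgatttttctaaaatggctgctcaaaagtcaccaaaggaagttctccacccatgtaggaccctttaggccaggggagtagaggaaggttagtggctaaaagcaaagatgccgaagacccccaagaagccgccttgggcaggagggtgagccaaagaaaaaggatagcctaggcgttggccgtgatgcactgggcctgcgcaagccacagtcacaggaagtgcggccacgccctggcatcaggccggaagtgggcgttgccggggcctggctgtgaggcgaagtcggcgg
Tdrkh: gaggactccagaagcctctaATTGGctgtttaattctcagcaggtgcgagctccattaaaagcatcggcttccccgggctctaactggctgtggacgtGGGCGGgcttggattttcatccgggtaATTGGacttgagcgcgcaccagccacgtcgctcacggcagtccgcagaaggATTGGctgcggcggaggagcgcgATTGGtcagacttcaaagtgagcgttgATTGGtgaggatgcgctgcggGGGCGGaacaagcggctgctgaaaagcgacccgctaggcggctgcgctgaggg
Mov10l1: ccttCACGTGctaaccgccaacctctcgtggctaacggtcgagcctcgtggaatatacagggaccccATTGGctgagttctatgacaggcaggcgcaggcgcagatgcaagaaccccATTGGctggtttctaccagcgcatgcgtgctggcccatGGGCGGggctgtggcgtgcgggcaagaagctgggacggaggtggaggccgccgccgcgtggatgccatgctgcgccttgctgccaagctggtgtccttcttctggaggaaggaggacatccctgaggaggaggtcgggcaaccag
The Gtsf1 sequence has 0 matches to any of the 5 motifs, that of Tdrkh has 5 to CCAAT and 2 to the GC box, and that of Mov10l1 has 2 to CCAAT, 1 to the GC box and 1 to the E-box. Over all 32544 distinct start regions of that length, 37.4% hold CCAAT, 35.9% GGGCGG, 7.17% CACGTG, 34.9% CAACNG and 13.6% TATAAA. Among the 8 start regions of the 7 matched genes (Pld6 has 2), 6 hold CCAAT, 7 GGGCGG, 4 CACGTG, 2 CAACNG, both of them Pld6, and 0 TATAAA. Their CpG dinucleotides number 13 (Gtsf1) to 49 (Dicer1), against a median of 7 over all start regions. A match describes letters in a window and no binding was measured.

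The wider pathway was then described from 2 lists of genes. Of 23 other piRNA pathway genes, 20 were in the tables and 18 were tested between stages: 9 fell, 5 rose and 4 did not pass. The shares among all genes tested were 27.8% and 28.2%. Their median difference was -1.06, against -0.10 over all genes. Tdrd12, a Tudor domain helicase, was at 165.5, 95.3, 158.5 and 102.7 FPKM in wild-type GV libraries 1 and 2 and YAP-null GV libraries 1 and 2, and at 2.84 and 8.84 FPKM in the 4-cell libraries (wild type first; -4.38 ± 0.464, limma adjusted p = 0.000663). Tdrd5 averaged 91.0 ± 31.7 FPKM in GV libraries (SD, n = 4) and was at 2.99 and 1.06 FPKM at the 4-cell stage (-4.94), and Tdrd1 averaged 105.9 ± 56.1 FPKM and was at 1.91 and 3.71 FPKM (-4.68). Henmt1, which methylates piRNA 3' ends, averaged 92.0 ± 33.2 FPKM and was at 1.24 and 8.05 FPKM (-4.29). Asz1, a mitochondrial scaffold protein, averaged 62.2 ± 22.4 FPKM and was at 2.15 and 3.13 FPKM (-4.06). Each of these 5 genes was above all 4-cell values in every GV library, as Gtsf1 was.

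Piwil1, which encodes the PIWI protein MIWI, fell by 2.47, from 5.85 to 12.4 FPKM in GV libraries to 0.167 and 1.71 FPKM in the wild-type and YAP-null 4-cell libraries. Piwil4, the gene of the nuclear PIWI protein MIWI2, was under 0.133 FPKM in every library and was not tested. Piwil2 was thus the PIWI gene with the highest value at the 4-cell stage and Piwil1 that with the highest value in each GV library. Rnf17, another Tudor domain gene, fell by 2.50 on the log2 scale. Tdrd9, a Tudor domain helicase gene (-1.298), and Tdrd7, which stayed under 10 FPKM, also fell. In the other direction, Pnldc1, the trimmer of piRNA 3' ends that works with TDRKH, was at 7.91 to 17.6 FPKM in GV libraries and at 27.1 and 28.9 FPKM at the 4-cell stage (1.201 ± 0.411, limma adjusted p = 0.0455). Fkbp6, a co-chaperone of the pathway, was at 6.47 to 13.6 FPKM and at 36.8 and 27.2 FPKM (1.59 ± 0.389). The other 3 genes that rose, Gtsf1l, Mybl1 and Tcfl5, stayed under 10 FPKM in every library. Gtsf1l averaged 0.468 FPKM in GV libraries. Its mean reached the 1 FPKM needed for a test only through the 4-cell libraries, and fell short without the wild-type 4-cell library. Exd1 (8.04 and 7.42 FPKM at the 4-cell stage, adjusted p = 0.0604) and Tex19.1 (76.4 and 119 FPKM, adjusted p = 0.504) did not pass. With 1 library left out, 6 to 9 of the piRNA genes were lower and 1 to 5 higher, with the fewest without the wild-type 4-cell library (6 lower, 1 higher). Without it Piwil1 (adjusted p = 0.0751), Tdrd1 (0.0505), Tdrd9, Fkbp6 and Mybl1 no longer passed, and Pnldc1 passed in 1 of the 6 such fits only.

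Of 27 other miRNA and siRNA genes, 24 were tested: 6 rose, 1 fell and 17 did not pass, beside 28.2% and 27.8% of all genes. The median difference was 0.52, against -0.10 over all genes. Argonaute genes, whose proteins carry miRNAs and siRNAs, are listed under the symbols Eif2c1 to Eif2c4. Eif2c2, the gene of AGO2, which can cut its targets, was at 2.04 to 4.64 FPKM in GV libraries and at 44.9 and 27.7 FPKM in the 4-cell libraries (wild type first; 3.09 ± 0.407, limma adjusted p = 0.00138). Eif2c1 rose from 0.380 FPKM or less to 3.17 and 1.90 FPKM (1.42). Its mean reached the 1 FPKM needed for a test only through the 4-cell libraries, and fell short when either of those was left out. Eif2c3 was the highest Argonaute gene by value in each GV library, at 4.43 to 6.45 FPKM, and was at 2.72 and 2.64 FPKM at the 4-cell stage (adjusted p = 0.0571). Eif2c4 was at 0.162 FPKM or less in GV libraries and at 4.33 and 0.628 FPKM at the 4-cell stage, and had too low a mean to be tested. Dgcr8, the RNA-binding partner of Drosha, rose by 1.55 on the log2 scale, from 6.76 to 8.64 FPKM to 25.5 and 21.6 FPKM. Drosha, the nuclease of the primary miRNA transcript, overlapped between stages (12.8 to 48.8 and 31.2 and 47.3 FPKM, adjusted p = 0.484). The nuclear transport gene Ran (2.84) and the helicase genes Ddx5 (2.05) and Ddx17 (2.46) also rose, and Dis3l2, an exonuclease of let-7 precursors, fell by 1.89.

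The remaining named genes of this list did not pass. They were Tarbp2, the double-stranded RNA-binding partner of Dicer (49.8 to 101 FPKM in GV libraries, 48.0 and 38.4 FPKM at the 4-cell stage), the exporter gene Xpo5, Adar, Tsn, Tsnax (summed over 2 loci), Snd1, Lin28a, Mov10, Srrt and Tnrc6c. With 1 library left out, 4 to 9 genes of this list were higher and 0 or 1 lower, with the fewest (4 higher, 0 lower) without the wild-type 4-cell library. In that fit Dgcr8 (adjusted p = 0.0682) and Dis3l2 (0.0647) no longer passed. The plot of pathway genes gives the estimates of both lists.

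**Figure D3:**
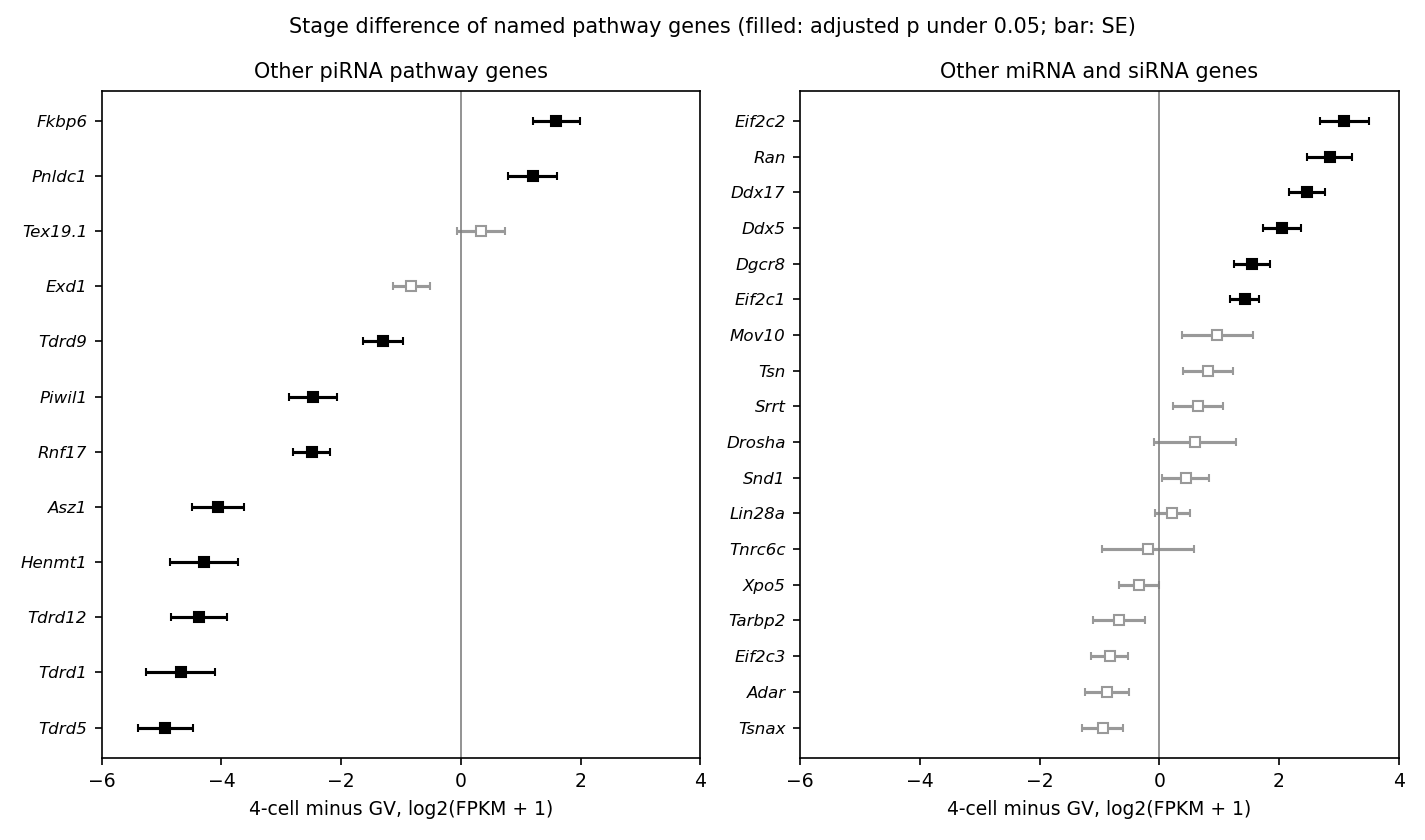
Stage difference, 4-cell minus GV in log2(FPKM + 1), of the named genes of 2 lists, with the SE of the limma fit over 6 libraries. Filled squares have an adjusted p under 0.05. In the left panel 5 genes lie between -4.94 and -4.06, and in the right panel Eif2c2 stands highest at 3.09.

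The second comparison was between YAP-null and wild-type GV oocytes. None of the 8 genes passed the test, and all 8 had an adjusted p of 1.00 in limma. Over all 10462 genes tested 0 (0%) passed and 22 (0.21%) had an unadjusted p under 0.05, none of the 8 among them. That share is far below the fraction of 0.05 that evenly spread p-values would give. The fit has no term for the library number, so differences between same-numbered pairs of GV libraries count as spread within a genotype. The low share is therefore not read as a sign that the genotypes are alike. Yap1 itself did not pass in this fit (-4.10 ± 0.387, limma adjusted p = 1.00), so a gene that missed the threshold here is not shown to be equal between genotypes. The differences ranged from -0.23 ± 0.425 (Mael) to 0.46 ± 0.333 (Mov10l1), with a median of 0.13 against 0.00 over all genes.

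Mov10l1 was the only one of the 8 genes whose genotypes did not overlap, at 2.19 and 2.31 FPKM in YAP-null and 1.40 and 1.34 FPKM in wild-type GV libraries. For library 1 the genotypes were 0.41 apart and for library 2 they were 0.50 apart, against which limma gave an adjusted p of 1.00. Both YAP-null libraries lay above both wild-type libraries for 5.1% of all genes tested, and below them for 5.68%. For the others of the 8 genes, each SD also holds the difference between libraries 1 and 2, so it does not measure how close the genotypes were. With YAP-null first, Gtsf1 averaged 389 ± 162 and 342 ± 156 FPKM, Dicer1 58.3 ± 31.0 and 57.0 ± 31.1 FPKM, and Tdrkh 19.6 ± 4.27 and 18.7 ± 7.18 FPKM (SD, n = 2 each). Ddx4 averaged 15.9 ± 10.6 and 13.9 ± 9.04 FPKM, Mael 31.2 ± 12.8 and 35.2 ± 4.28 FPKM, Pld6 5.27 ± 2.93 and 4.54 ± 4.01 FPKM, and Piwil2 1.97 ± 1.81 and 2.13 ± 1.39 FPKM. Within the numbers 1 and 2 the genotype difference was 0.05 and 0.02 for Dicer1, 0.14 and 0.20 for Ddx4, 0.15 and 0.24 for Gtsf1, and -0.35 and 0.04 for Piwil2. It was 0.27 and -0.07 for Tdrkh, -0.01 and 0.63 for Pld6, and 0.07 and -0.52 for Mael. Among the other pathway genes 0 of 17 piRNA genes and 0 of 23 miRNA and siRNA genes passed, with medians of 0.06 and 0.01.

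In both genotypes, 7 of the 8 genes differed in the same direction between GV libraries 1 and 2. Piwil2, Ddx4, Tdrkh and Dicer1 were higher in both GV libraries numbered 2 than in both numbered 1, as were 43% of all genes tested. Gtsf1, Mael and Pld6 were lower in both, as were 34.4%. Ddx4 and Dicer1 were at least 2-fold higher in library 2 than in library 1 in both genotypes, as were 13.2% of all genes. On the log2(FPKM + 1) scale the differences were 1.32 and 1.38 (Ddx4, wild type first) and 1.151 and 1.12 (Dicer1). None of the 8 genes was at least 2-fold lower in both, as were 4.09% of all genes. Dicer1 read 35.0 and 36.4 FPKM in the libraries numbered 1 and 79.0 and 80.2 FPKM in those numbered 2, so the wild-type and YAP-null libraries of 1 number nearly coincided. Tdrd1 behaved alike at 52.5 and 62.4 against 154.6 and 154.1 FPKM, and so did Drosha at 13.6 and 12.8 against 45.3 and 48.8 FPKM. Mov10l1 was nearly even, at -0.04 and 0.05. The oocyte markers moved with the number too: 7 of 10 were higher in both libraries numbered 2 and none was lower in both. The sources used here do not say what the number stands for, and its part in these differences was not tested.

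**Figure D4:**
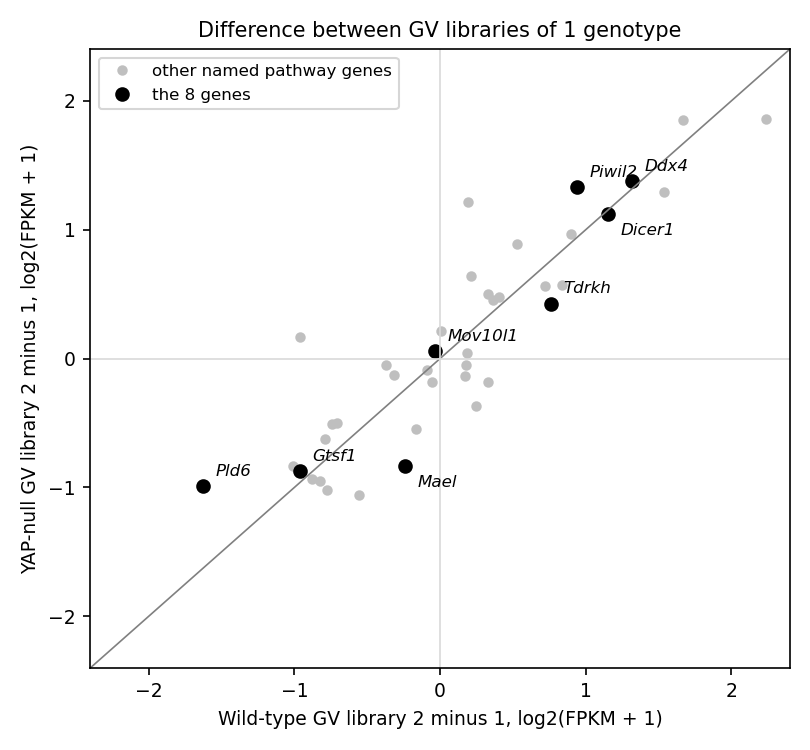
Difference between GV library 2 and GV library 1 in log2(FPKM + 1), within wild type (horizontal axis) and within YAP-null (vertical axis), for the 8 genes (black) and the other named pathway genes (grey). The line marks equal differences. Dicer1 (1.151 and 1.12) and Ddx4 (1.32 and 1.38) lie at the upper right, Pld6 (-1.63 and -0.99) and Gtsf1 (-0.96 and -0.88) at the lower left, and Mov10l1 near 0.

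The third comparison was between the YAP-null and the wild-type 4-cell library. With 1 library per genotype no test was made, and the deposited bounds given here cover error within a library only, at a confidence level the sources used here do not state. Pld6 was the only one of the 8 genes at least 2-fold apart on the log2(FPKM + 1) scale: it was at 14.2 FPKM (bounds 11.1 to 16.6) in the YAP-null and 3.96 FPKM (2.85 to 5.04) in the wild-type library, a difference of 1.61. Over 10854 genes 17.7% were past 2-fold upward and 9.97% past 2-fold downward in the YAP-null library, so 1 of 8 is close to the share among all genes. Tdrkh was just inside that limit at 0.98, with 8.54 FPKM (6.93 to 10.1) and 3.82 FPKM (2.97 to 4.67).

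Dicer1 was at 32.2 FPKM (30.5 to 33.7) in the YAP-null and 19.3 FPKM (18.2 to 20.3) in the wild-type 4-cell library, and Ddx4 at 21.0 FPKM (18.8 to 23.1) and 15.1 FPKM (13.5 to 16.8). For Pld6, Tdrkh, Dicer1 and Ddx4 the YAP-null bounds lay wholly above the wild-type bounds, as they did for 34.6% of all genes, and for none of the 8 genes wholly below, as for 30.6%. They overlapped for Mael at 40.7 (33.1 to 42.1) and 33.2 FPKM (27.0 to 34.4), for Piwil2 at 17.8 (16.0 to 19.5) and 17.2 FPKM (15.6 to 18.6), for Mov10l1 at 6.94 (5.86 to 7.99) and 7.64 FPKM (6.60 to 8.67), and for Gtsf1 at 3.57 and 5.83 FPKM (upper bounds 5.34 and 7.26). The median difference of the 8 genes was 0.36, against 0.05 over all genes. The oocyte markers were also higher in the YAP-null 4-cell library, 10 of 10 at least 2-fold, against 17.7% of all genes. Zp1 was at 66.98 and 6.98 FPKM and Gdf9 at 220.2 and 19.9 FPKM (YAP-null first). Embryo markers were at least 2-fold lower there for 5 of 7 (median -1.10), against 9.97% of all genes. Of 8 blood markers 5 were compared, and 4 of these were at least 2-fold lower (median -4.08). Those 4 were at 0.0668 FPKM or less in the YAP-null library. Their mean reached the 1 FPKM needed only through the wild-type library, so their direction was fixed in advance. Among the blood markers Hba-a1 was nearly even, at 25.9 and 26.3 FPKM (YAP-null first), while Hba-a2 was at 0.0668 and 26.0 FPKM. Both were summed over 2 loci. Cd68 was low, at 0 and 2.29 FPKM. The part of these markers in the values of Pld6, Tdrkh, Dicer1 and Ddx4 was not tested. Tdrkh and Dicer1 were lower by value at the 4-cell stage than in GV oocytes in both genotypes, while Pld6 in the YAP-null 4-cell library exceeded every GV library.

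**Figure D5:**
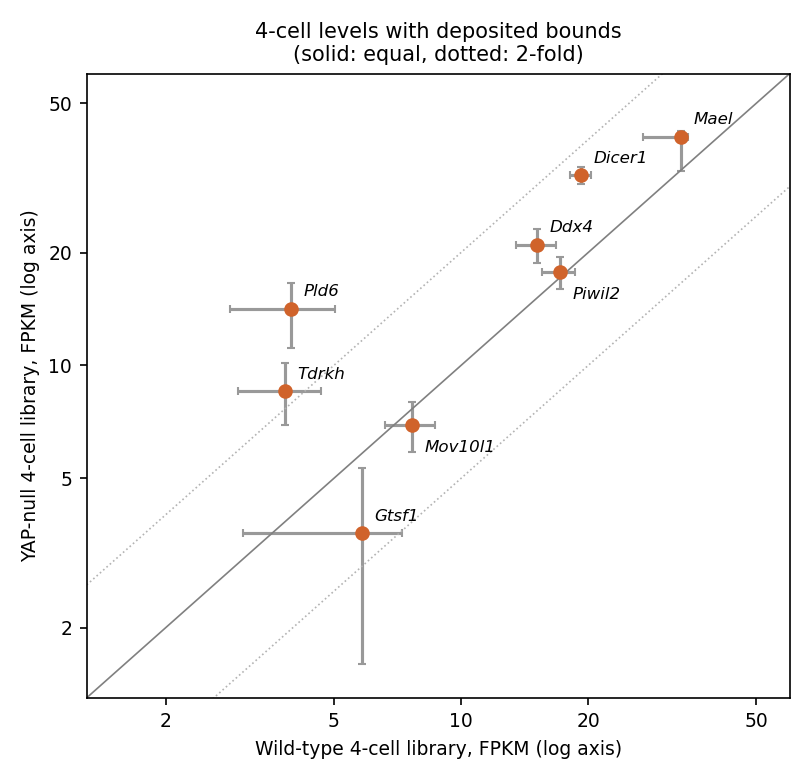
FPKM of the 8 genes in the wild-type (horizontal) and the YAP-null (vertical) 4-cell library, both on log axes, with the deposited bounds as bars. The solid line marks equal levels and the dotted lines 2-fold. Pld6 and Tdrkh lie above the upper dotted line in FPKM, Dicer1 and Ddx4 between the lines, and Piwil2 and Mov10l1 near the solid line.

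Among the other piRNA pathway genes 2 of 16 were at least 2-fold higher in the YAP-null 4-cell library, Henmt1 (8.05 and 1.24 FPKM) and Tdrd12 (8.84 and 2.84 FPKM), and 1 was lower, Gtsf1l (2.39 and 7.51 FPKM). Tdrd5 was lower by value, at 1.06 and 2.99 FPKM, like Gtsf1. Among 25 miRNA and siRNA genes 0 were at least 2-fold higher and 4 lower. The shares of all genes, for both lists, were 17.7% and 9.97%. These were Mov10, the somatic relative of Mov10l1 (3.53 and 15.3 FPKM), Srrt (13.7 and 36.1 FPKM), Eif2c4 (0.628 and 4.33 FPKM) and Tnrc6a, which stayed under 10 FPKM. Eif2c2 was at 27.7 and 44.9 FPKM, a difference of -0.68.

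For each of the 8 genes, the genes with the most similar profile over the 6 libraries were sought among 6212 genes averaging 10 FPKM or more. Likeness was the root mean square difference in log2(FPKM + 1) after each gene was centred on its own mean. The nearest was Hsph1 for Ddx4 (0.0754), Pcnx for Dicer1 (0.0751), Snrnp48 for Mov10l1 (0.0885), Trim26 for Tdrkh (0.0995), Armc7 for Mael (0.101) and Arfgap2 for Piwil2 (0.106). Pld6 and Gtsf1 had no neighbour as close, with Socs1 at 0.197 and Gm11985 at 0.201. The second nearest was Nfe2l1 for Ddx4, Trak1 for Dicer1, Eif2a for Mov10l1, Eif4enif1 for Tdrkh, Supv3l1 for Mael, Ddx10 for Piwil2 and Cyb5 for Gtsf1. Among the 8 genes themselves Tdrkh and Dicer1 were the most alike (0.328), and Gtsf1 and Piwil2 the least (4.18).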

How the data were processed

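The authors deposited 1 gene table per library of FPKM values, each with a lower and an upper bound, as the file headers name them. CASAVA 1.8, TopHat and mm9 are named in the submitters' processing notes. The sources used here name no quantification tool or annotation. Each table has 23813 lines. A single failed line (1) was dropped and values of 260 symbols at several loci were summed. Deposited starts count from 0, since the span equals the RefSeq gene length for 9170 genes (558 if counted from 1), so 1 was added. Genes averaging 1 FPKM or more in the libraries of a comparison were tested as log2(FPKM + 1) with limma 3.58.1 (limma-trend, R 4.3.3, two-sided, Benjamini-Hochberg over all genes), with the 4 GV libraries for genotype and all 6 for stage plus genotype. The fit was also run on simulated data with independent libraries. These lack the likeness of same-numbered GV libraries, so they do not test how the fit handles it. Of the pathway lists, genes with at least 10 FPKM in any library were named, plus PIWI and Argonaute genes, Drosha and Dgcr8. Other genes were named after their values were seen where a small count needed it (Gtsf1l, Mybl1, Tcfl5, Tdrd7, Dis3l2, Tnrc6a). The genes and lists were chosen with earlier results of these data known. Relative depth used genes near 1 fragment, or the bounds of 1880 genes between 10 and 1000 FPKM. Alternatives covered pseudocount, filter, scaling, replicate block, genotype term and left-out libraries.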

Additional observations from a re-analysis of the deposited data

Results flagged for a closer look

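Mov10l1 was picked out because its genotype difference ran in opposite directions at the 2 stages. It was 0.46 on the log2(FPKM + 1) scale in GV oocytes, where both YAP-null libraries lay above both wild-type libraries, and -0.12 at the 4-cell stage, where the deposited bounds of the 2 libraries overlap. After libraries were scaled to an equal FPKM total both differences were above 0, at 0.36 in GV oocytes and 0.05 at the 4-cell stage. The difference between the stages was not tested.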

How the results depend on the processing

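Between stages, the counts of higher and lower genes were 3228 and 3180. They were 1404 and 933 in wild-type libraries only, with 0 and 1 of the 8 genes (Gtsf1), and 570 and 1 in YAP-null libraries only, with 0 and 0, in fits of 3 libraries each. Without 1 library they ranged from 1650 to 3182 and from 1315 to 3171, with 1 to 2 of the 8 genes in each direction; the fewest genes were called without the wild-type 4-cell library. At a mean of at least 5 FPKM, which drops Mov10l1, 1 of the 8 genes was higher. Mael turned to -0.076 in wild-type libraries only and ranged from -0.076 to 0.43 without 1 library. In GV oocytes 1 higher and 1 lower gene passed with the replicate block, and 1 to 5 higher and 1 to 2 lower without 1 library, where the lone library of a genotype is assumed to vary like the others; 0 of the 8 genes passed in any of these. The cause of these changes was not tested. Only 2 numbers are shared, so they are not taken to pair the libraries. With a replicate block among GV libraries Dicer1 passed between stages (adjusted p = 0.0122). After libraries were scaled to an equal FPKM total the median GV difference of all genes was -0.13, and Tdrkh turned to -0.040 and Dicer1 to -0.11. Mir762 held a large share of the FPKM total of YAP-null GV library 1 and no share of the total of any other library. Scaling to an equal total therefore lowers the other genes of that library. The scaling was not repeated without Mir762, so its part in these shifts was not tested. Without 1 library the GV differences ranged from -0.82 to 0.51 (Piwil2), -0.52 to 0.86 (Ddx4), -0.64 to 0.19 (Mael), -0.50 to 1.13 (Pld6), -0.28 to 0.48 (Tdrkh), -0.28 to 0.68 (Gtsf1) and -0.54 to 0.61 (Dicer1). Leaving out 1 GV library makes the library numbers uneven between genotypes, so these ranges also hold the difference between numbers. For Dicer1 the genotype difference was 0.05 and 0.02 within the numbers 1 and 2. At the 4-cell stage 2 of the 8 genes (Pld6 and Tdrkh) were at least 2-fold higher with a pseudocount of 0.1 FPKM and after that scaling, where the median of all genes went from 0.05 to 0.23 and the share of higher genes from 64.0% to 75.4%; quantile normalization gave 53.4%. Genes at least 2-fold higher and lower numbered 834 and 441 with a pseudocount of 5 FPKM and 1083 and 640 at a mean of at least 5 FPKM, against 1925 and 1082.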

Other observations

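Among 367 genes that passed as lower at the 4-cell stage and averaged at least 100 FPKM in GV oocytes, the YAP-null 4-cell library lay above the wild-type one by a median of 1.197 on the log2(FPKM + 1) scale. Gtsf1 was one of 54 (14.7%) that lay below wild type there, at 3.57 and 5.83 FPKM. This set was formed after the values were seen, and the bounds of Gtsf1 in the 2 libraries overlap.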
